A study of Homo sapiens with 7 samples.

Results

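Silencing of TP63 in KYSE140, an established human esophageal squamous carcinoma line, was described by comparing the library of cells carrying an shRNA against TP63 (shTP63) with the library of cells carrying a non-targeting scramble shRNA. These were 2 of the 7 RNA-seq libraries of the series. The genes were all those with at least 100 estimated counts in 1 of the 2 libraries, here called well counted, which held 14401 of 56234 genes. The series also held a KYSE140 library with SOX2 silenced and 4 libraries of TE5, a further esophageal squamous carcinoma line: scramble, shCCAT1, shTP63 and shSOX2. All cells carried an shRNA and were grown in medium with serum. Each condition had 1 library, so no p-value or replicate error could be given. Intervals in brackets are 95% Clopper-Pearson limits of the ratio and cover counting error only.

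TP63 encodes p63, a transcription factor of the p53 family that maintains the basal, proliferating layer of stratified squamous epithelia. Its transcripts start either upstream, giving TA proteins with a transactivation domain, or at an internal promoter, giving the deltaN proteins that predominate in squamous cells. Basal keratins, cell adhesion genes and genes of the epidermal differentiation program are among its well-known targets.

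The sequences at the most used annotated TP63 start of each class are shown, since these starts separate the TA from the deltaN transcripts whose levels follow. They were read from GRCh37, plus strand, with the first transcribed base in capitals.
TA start, chr3:189349118-189349217: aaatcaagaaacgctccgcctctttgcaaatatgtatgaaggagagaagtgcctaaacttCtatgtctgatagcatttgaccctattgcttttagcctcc
deltaN start, chr3:189507388-189507487: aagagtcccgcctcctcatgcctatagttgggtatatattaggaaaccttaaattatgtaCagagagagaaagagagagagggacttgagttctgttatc

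TP63 (ENSG00000073282, chr3:189349178-189615065) was first examined in every library, since its decrease is what the labels state. In KYSE140, it had 48791 normalized counts in scramble, 12727 in shTP63 and 61869 in shSOX2. In TE5, it had 27142 normalized counts in scramble and 6886 in shTP63. The shTP63 library was therefore the lowest of its line in both, with a log2 fold change of -1.94 [-1.97, -1.91] in KYSE140 and -1.98 in TE5. Transcripts that began at the downstream starts held 97.6% of the TP63 counts in KYSE140 scramble and 98.6% in KYSE140 shTP63. The TA starts had 1153 normalized counts in scramble and 175 in shTP63, a log2 fold change of -2.71, and the downstream starts went from 47638 to 12552, a log2 fold change of -1.92. The division among transcripts was estimated by kallisto. Per length, the gene stood at 193 TPM in scramble and 48.7 TPM in shTP63.

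Libraries held between 68532611 and 98036494 estimated counts. KYSE140 scramble was sequenced in lane 2 and both KYSE140 silencing libraries in lane 3, so lane and silencing cannot be told apart in the comparison with scramble. In TE5 the scramble library was likewise in another lane (3) than the shTP63 library (1). Mitochondrial genes held 2.78% of the counts in KYSE140 scramble, 3.59% in shTP63 and 3.75% in shSOX2. All 12 squamous carcinoma markers were well counted, with a summed TPM of 20714 in scramble, 13649 in shTP63 and 31729 in shSOX2. Of 9 fibroblast markers, 6 stayed under 1 TPM in all libraries, as did 6 of 8 leukocyte markers, 3 of 4 annotated endothelial markers and 7 of 11 glandular or intestinal markers. The summed TPM in KYSE140 was at most 71.4 for the fibroblast list, 15.8 for the leukocyte list, 1.42 for the endothelial list and 15.4 for the glandular list.

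Upon TP63 silencing, 248 genes fell to a log2 fold change of -1 or lower, which was 1.72% of the well-counted genes. In the opposite direction, 269 genes rose to 1 or higher, which was 1.87%. These shares are the background for each count of list members given below. The remaining 13884 genes lay within 2-fold, with a median log2 fold change over all genes of 0.01 and quartiles of -0.21 and 0.22. With no scaling between libraries, 58 genes fell and 1687 rose, since the median of all genes then stood at 0.59. Protein-coding genes made up 215 of the genes that fell and 198 of those that rose, and lncRNAs 26 and 52. The threshold cut through a continuous distribution: USP39 at -1.002 and HLA-F at 1.001 lay just inside it, and DHX57 at -0.997 and HOXA2 at 0.995 just outside.

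Genes past the threshold were spread unevenly over expression. In the lowest decile of genes by mean count, 67 fell and 147 rose, with a median log2 fold change of 0.24, whereas in the highest decile 12 fell and 2 rose, with a median of -0.04. The filter bears on this split: 175 of the genes that rose had fewer than 100 counts in scramble and were well counted only through shTP63, where they are high, and 64 of the genes that fell were so only through scramble. Among the increases named below, these include TBX2, A2ML1, SLPI, CCN2, MMP13, BTC, BMP4, HLA-F, CD274, CYP26A1, CYP1B1, FANCB, MUC15, CEACAM1, CASC8, POU5F1B and GJB7. LIPH, PRR15L, GBP5, DIO2 and PATL2, also named below as increases, were likewise well counted only through shTP63. The spread of the log2 fold changes was also larger at low counts, with an SD over genes of 0.90 in the lowest decile and 0.29 in the highest. The counting interval lay wholly past the 2-fold threshold for 152 of the genes that fell and 120 of those that rose. The log2(TPM + 1) scale takes transcript length into account and holds back genes of low level. On it, 36 of the 87 named genes past the threshold lay within 2-fold. Among these were LIF, HBEGF, LORICRIN, COL12A1 and FBLN2 of the decreases and SCNN1A, MUC15, CEACAM1, IL36RN, CD274, BMP4, CYP26A1 and DNAH6 of the increases.

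**Figure D1:**
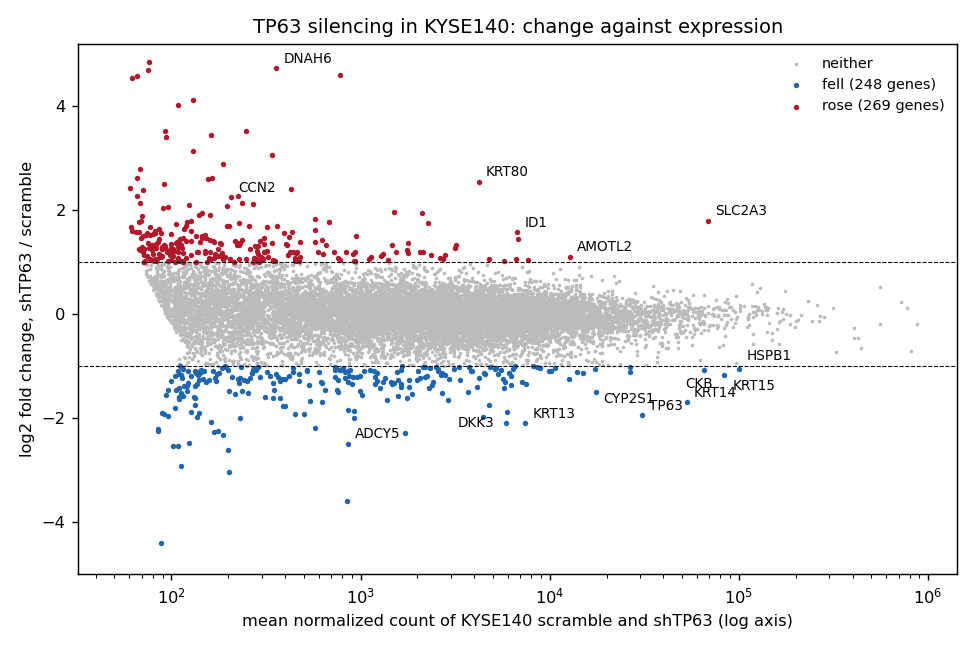
Log2 fold change of shTP63 against scramble in KYSE140 for each well-counted gene (vertical axis) against its mean normalized count in both libraries (horizontal, log axis), with genes that fell in blue, genes that rose in red and dashed lines at -1 and 1. Decreases such as KRT14 and KRT15 lie at the right, SLC2A3 stands alone among abundant genes that rose, and 7 genes lie outside the plotted range of -5.0 to 5.2.

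Among keratins, the intermediate filament proteins of epithelia, 3 of 15 well-counted members fell and 1 rose, beside 1.72% and 1.87% of all genes. The list had a median log2 fold change of -0.45, beside 0.01 for all genes. In these bulk samples, fewer cells of a type and less RNA per cell cannot be told apart. KRT14 (chr17:39738531-39743147, GRCh37), the partner of KRT5 in basal cells, had 80988 normalized counts in KYSE140 scramble, 25074 in shTP63 and 160426 in shSOX2. KRT14 was thus lowest in shTP63, a log2 fold change of -1.69 [-1.71, -1.67] against scramble, and in TE5 it was nearly absent, with 29.7 and 24.5 normalized counts in scramble and shTP63. KRT15 (chr17:39669997-39678781), a keratin of basal and progenitor cells, went from 115780 in scramble to 51404 in shTP63, with 155909 in shSOX2. KRT13, a keratin of the suprabasal layers of esophagus and oral mucosa, went from 12031 to 2810, with 15190 in shSOX2. Log2 fold changes were -1.17 for KRT15 and -2.10 for KRT13 in KYSE140, and -0.40 and -0.11 in TE5.

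The most abundant keratins changed by less than the threshold. KRT5 had 1004836 normalized counts in scramble and 617942 in shTP63, a log2 fold change of -0.70. KRT17 and KRT6A, keratins of activated and hyperproliferative epithelium, had log2 fold changes of -0.64 and -0.45, and KRT16 one of -0.52. The simple epithelial keratins KRT8 and KRT18 had values of 0.35 and 0.20, KRT8 without its canonical transcript. In TE5 the same genes had other values, -1.80 for KRT5, -2.65 for KRT6A and 0.95 for KRT17. KRT80, a keratin found in differentiating and simple epithelia, was the keratin that rose, from 1227 normalized counts in scramble to 7190 in shTP63, with 2181 in shSOX2. Its log2 fold change was 2.55 [2.45, 2.65] in KYSE140 and 0.73 in TE5.

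Of the squamous transcription factors and their partners, 2 of 26 fell, TP63 itself and BNC1, and TBX2 rose, beside 1.72% and 1.87% of all genes. BNC1, a zinc finger protein of basal keratinocytes and germ cells, had 2158 normalized counts in scramble, 866 in shTP63 and 3171 in shSOX2, a log2 fold change of -1.32, and -1.02 in TE5. TBX2, a T-box repressor, rose from 52.7 to 132 normalized counts and had a log2 fold change of -0.57 in TE5. SOX2, the partner factor studied beside TP63, had 29149 normalized counts in scramble and 30427 in shTP63, a log2 fold change of 0.06. The list median was 0.08.

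Connexins, which form gap junctions between neighbouring cells, included a pair of strong decreases. GJB2 had 10220 normalized counts in scramble, 4138 in shTP63 and 17246 in shSOX2, a log2 fold change of -1.30. GJB6 had 9331, 2525 and 15348, a log2 fold change of -1.89, with its canonical transcript outside the transcripts of the files. Both were therefore lowest in shTP63 and highest in shSOX2, and in TE5 they were scarce, with 114 normalized counts of GJB2 and 2.1 of GJB6 in scramble. Of 10 well-counted connexins 2 fell and 1, GJB7, rose, beside 1.72% and 1.87% of all genes, with a median of -0.08. This family was picked after its values were seen.

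Adhesion genes of the basal layer moved less. None of the 12 desmosome genes and none of the 25 hemidesmosome and basement membrane genes passed the threshold, with medians of -0.22 and -0.06. The desmosomal plaque protein PKP1 had 194557 normalized counts in scramble and 130165 in shTP63, a log2 fold change of -0.58, and JUP (plakoglobin) had one of -0.38. LAMB3, a chain of laminin-332, had a value of -0.21 and COL4A2, a basement membrane collagen, one of -0.06. Nearer to the threshold, and noted after their values were seen, were the hemidesmosomal integrins ITGA6 at -0.91 and ITGB4 at -0.65, the integrin activator FERMT1 at -0.93, NID1 (nidogen) at -0.98 and the desmosomal cadherin DSC3 at -0.73. Tight junction and claudin genes, with 17 well counted, also had no member past the threshold and a median of 0.19, with CDH1 (E-cadherin) at 0.15. Of the 17 mesenchymal genes none passed either, with VIM (vimentin) at -0.43.

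The secreted protease inhibitors SERPINE2 and TIMP3 fell in KYSE140. SERPINE2, protease nexin, went from 7060 normalized counts in scramble to 1800 in shTP63, with 6731 in shSOX2, a log2 fold change of -1.97. TIMP3, an inhibitor of matrix metalloproteases, went from 4430 to 1406, with 5471 in shSOX2, a log2 fold change of -1.65. In TE5 the values were 0.17 for SERPINE2 and -0.56 for TIMP3, neither past the threshold. SERPINF1 and SERPINF2, serpins noted after their values were seen, fell in KYSE140, at -1.56 and -1.60. The list of metalloproteases and the urokinase system had a median of 0.17 over 18 genes. MMP13, a collagenase, rose, with a log2 fold change of 1.45. It had 45.8 normalized counts in scramble, 127 in shTP63 and 283 in shSOX2, so that shSOX2 and not shTP63 was highest.

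Stress proteins and enzymes of energy and redox metabolism were also among the abundant decreases. HSPB1, a small heat shock protein, had 136192 normalized counts in scramble, 65348 in shTP63 and 203539 in shSOX2. Its log2 fold change was -1.06, and -0.55 in TE5. CRYAB, a crystallin of the same family, went from 2857 to 585, with 2809 in shSOX2, a log2 fold change of -2.29, and -1.82 in TE5. The annotation's canonical CRYAB transcript was not among the transcripts of the files. HSPB1 and CRYAB were the 2 of 20 genes of the heat shock list that fell, with none rising, beside 1.72% and 1.87% of all genes. The list median was -0.17. In a list of small heat shock proteins, picked after its values were seen, all 3 well-counted members fell, with a median of -1.57. CKB, the brain-type creatine kinase, had 88419 normalized counts in scramble, 41979 in shTP63 and 65981 in shSOX2, a log2 fold change of -1.07, and -1.41 in TE5. GAMT, which makes creatine, had log2 fold changes of -1.13 in KYSE140 and -2.71 in TE5 and was noted after its values were seen.

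NRF2 is the master factor of the antioxidant response. In a list of 37 genes, which holds its own gene, its inhibitor KEAP1 and targets, 2 genes fell and none rose, beside 1.72% and 1.87% of all genes. AKR1C3, an aldo-keto reductase of steroids and carbonyls, had 8236 normalized counts in scramble, 3349 in shTP63 and 2048 in shSOX2, a log2 fold change of -1.30 and -1.23 in TE5. AKR1C1 had a value of -1.02 in KYSE140 and -1.12 in TE5. The list had a median of -0.26, with 31 of 37 members below 0, beside 48.3% of all genes. TXNRD1, a thioredoxin reductase, had a log2 fold change of -0.75 (3917 normalized counts in scramble, 2336 in shTP63), from a sum that lacked the transcripts without a gene in the annotation used. Its value in TE5 was -1.76. Per length, TXNRD1 went from 34.6 to 15.6 TPM in KYSE140, a decrease past 2-fold, so its side of the threshold depended on the measure. CYP2S1, a cytochrome P450 of epithelia, had 25990 normalized counts in scramble, 9214 in shTP63 and 25129 in shSOX2, a log2 fold change of -1.50 and -1.47 in TE5.

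Abundant decreases outside these lists included housekeeping genes of several kinds. ARF1, a small GTPase of the Golgi, had 36529 normalized counts in scramble and 16972 in shTP63, a log2 fold change of -1.11 and -1.15 in TE5. HMGN2, a nucleosome-binding protein, had a log2 fold change of -1.01 and -1.32 in TE5. ATP5MF, a subunit of mitochondrial ATP synthase, had one of -1.05 and -1.90 in TE5. The respiratory chain list, with 49 members that did not pass the threshold, had a median of -0.06. Of the 10 subunits of the COP9 signalosome, which removes NEDD8 from cullin ligases, 3 fell in KYSE140: COPS9 at -1.34, COPS2 at -1.14 and COPS7A at -1.09. The same 3 had values of -1.68, -1.87 and -1.69 in TE5. This complex was likewise picked after its values were seen, and its median was -0.25. Of all well-counted genes, 1.72% fell in KYSE140.

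Secreted signals fell in small number. DKK3, a secreted protein of the Dickkopf family, had 9557 normalized counts in scramble, 2232 in shTP63 and 13793 in shSOX2, a log2 fold change of -2.10 and -2.27 in TE5. Its canonical transcript was not among the transcripts of the files. It was the single decrease among 34 Wnt pathway genes, where DKK1, a Wnt antagonist, rose from 605 to 1234 (1.03). FGF19 went from 772 to 300 normalized counts, with 400 in shSOX2, a log2 fold change of -1.36 and the single decrease among 28 genes of FGF, MET and IGF signalling, whose median was -0.31. HBEGF, an EGFR ligand, had 386 normalized counts in scramble and 190 in shTP63 (-1.02), while BTC, another EGFR ligand, had 58.3 and 139 (1.24). LIF, a cytokine of the interleukin-6 family, had 326 and 130 (-1.33).

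The receptor ACKR3, which binds the chemokine CXCL12, had 1450 normalized counts in scramble, 400 in shTP63 and 1710 in shSOX2. Its log2 fold change was -1.86 in KYSE140 and -2.56 in TE5. EGFR, a receptor of this tumor type with abundant transcripts, had 100672 normalized counts in scramble and 84839 in shTP63, a log2 fold change of -0.25. ETV4, an ETS factor downstream of such receptors, had a value of -0.67 and MYC one of -0.81, the latter without its canonical transcript. In TE5 the values were -0.32 for EGFR, -0.57 for ETV4 and -1.78 for MYC. None of the 25 MAPK feedback and PEA3 genes passed the threshold, with CCND1 (cyclin D1) at -0.40.

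The most abundant gene that rose was SLC2A3 (chr12:8071826-8171603), the glucose transporter GLUT3. It had 30643 normalized counts in KYSE140 scramble, 106702 in shTP63 and 5778 in shSOX2. The shTP63 library was the highest and shSOX2 the lowest, with a log2 fold change of 1.80 [1.78, 1.82] against scramble, or 3.48-fold. In TE5 it went from 1854 to 6825, a log2 fold change of 1.88. SLC2A1, the glucose transporter GLUT1, had a log2 fold change of -0.25. Per length, SLC2A1 was more abundant than SLC2A3 in scramble, at 255.1 against 133 TPM, and less abundant in shTP63, at 224 against 456 TPM. Of 44 glycolysis and hypoxia genes, SLC2A3 was the one that rose and CA12, a carbonic anhydrase, the one that fell (-1.21), and the median was -0.09. In TE5, CA12 was not well counted, with 67.8 and 13.5 normalized counts in scramble and shTP63 (-2.24). The fructose transporter SLC2A5 fell, at -1.47, and was noted after its values were seen.

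Of 20 well-counted mucin and secretory genes, 4 rose and none fell, beside 1.87% and 1.72% of all genes, and 2 of the 4, MUC15 and CEACAM1, were well counted only through shTP63. The median of 0.66 against scramble was the highest of the 44 lists, but it was 0.14 against shSOX2, and shSOX2 itself had a median of 0.38 against scramble. Of the 20 genes, 13 lay above 0 and 7 below. The summed TPM of the 38 annotated members was lower in shTP63 than in scramble, at 1319 against 1467. PRSS22, an airway-type serine protease, had 1000 normalized counts in scramble, 2585 in shTP63 and 1314 in shSOX2, a log2 fold change of 1.37. SCNN1A, a subunit of the epithelial sodium channel, went from 174 to 444, with 138 in shSOX2 (1.35). MUC15 went from 124 to 322, with 427 in shSOX2 (1.37), and the adhesion molecule CEACAM1 from 58.8 to 157, with 99.9 in shSOX2 (1.40). In TE5 the values were 0.72 for PRSS22, -0.03 for SCNN1A and 1.32 for CEACAM1, and the list median was 0.78. Of these 4 genes, MUC15 was higher in shSOX2 than in shTP63.

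In the cornified envelope and late differentiation list, 2 of 20 genes rose and 1 fell, beside 1.87% and 1.72% of all genes. The median was -0.15. SCEL (sciellin), a precursor of the cornified envelope, had 1814 normalized counts in scramble, 4560 in shTP63 and 2980 in shSOX2. Its log2 fold change was 1.33 [1.24, 1.42] in KYSE140 and 1.73 in TE5. A2ML1, a protease inhibitor of the granular layer, went from 83.3 to 193, with 234 in shSOX2 (1.20). LORICRIN, the main protein of the cornified envelope, was the member that fell, from 198 to 82 normalized counts (-1.26). Among 15 kallikreins and clade B serpins with their partners, SLPI, an inhibitor of leukocyte proteases, rose from 65.2 to 151, with 186 in shSOX2 (1.20), and the median was 0.36.

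Inhibitors of differentiation, the ID proteins, are targets of BMP signalling. Among well-counted protein-coding genes that rose past the threshold, ID1 had the second largest increase in TPM. ID1 had 3387 normalized counts in scramble, 10093 in shTP63 and 6851 in shSOX2, a log2 fold change of 1.58 [1.51, 1.64]. ID4 had 151, 486 and 252, a log2 fold change of 1.68, and the ligand BMP4 had 91.6, 208 and 120 (1.17). Each of these 3 genes was highest in shTP63 and had an intermediate level in shSOX2. They were the members that rose among 35 TGF-beta and BMP genes, of which none fell, beside 1.87% and 1.72% of all genes. The list median was 0.13. ID2 and ID3 had values of 0.64 and 0.71. In TE5, the log2 fold changes were 0.06 for ID1, -0.10 for ID4 and 0.68 for BMP4.

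YAP and TEAD are the effectors of Hippo signalling. Of 22 genes in a list of these factors, their regulators and targets, 2 rose and none fell, beside 1.87% and 1.72% of all genes, with a median of 0.04. AMOTL2, which binds YAP, had 8136 normalized counts in scramble, 17514 in shTP63 and 8351 in shSOX2 (1.11). CCN2, a matricellular growth factor, went from 70.8 to 341, with 64.5 in shSOX2 (2.25 [1.84, 2.72]). In both genes the shSOX2 library stood near scramble. STK38, a kinase of the Hippo family, had 4275 and 8956 normalized counts (1.07), and the actin-severing protein CFL2 had 5019 and 10308 (1.04).

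Of 38 epithelial cytokines, chemokines, their receptors and related immune genes, 5 rose and 1 fell, beside 1.87% and 1.72% of all genes, with a median of 0.04. IL7R, the interleukin-7 receptor, had 306 normalized counts in scramble, 1053 in shTP63 and 536 in shSOX2, a log2 fold change of 1.78 in KYSE140 and 1.93 in TE5. IL36RN, which blocks the interleukin-36 receptor, went from 169 to 552, with 284 in shSOX2 (1.70, and 1.501 in TE5). CD274, which encodes PD-L1, went from 36.1 to 102, with 89.3 in shSOX2 (1.47, and 2.17 in TE5), and the apoptosis inhibitor BIRC3 from 225 to 464 (1.04). Among 49 interferon-stimulated genes, IFI44L rose, from 164 to 453 (1.46), none fell and the median was 0.28. Of 18 antigen presentation genes, HLA-F had a value of 1.00 and PSMB10, an immunoproteasome subunit, fell from 895 to 359 (-1.32, with 0.41 in TE5).

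Enzymes of retinoid metabolism were among the genes that rose. CYP26A1, which degrades retinoic acid, had 58.7 normalized counts in scramble, 230 in shTP63 and 65.4 in shSOX2 (1.95). RDH10, which oxidizes retinol, had 3073, 6454 and 2619 (1.07). In both, shTP63 was the highest of the KYSE140 libraries. In TE5 the log2 fold changes were 0.34 for CYP26A1 and 0.34 for RDH10, neither past the threshold. CYP1B1 and CYP2J2 also rose, by 1.30 and 1.07 on the log2 scale, CYP1B1 without its canonical transcript. Of the 22 genes of retinoid, alcohol and xenobiotic oxidation, 4 rose and 1, CYP2S1, fell, beside 1.87% and 1.72% of all genes. The list median was -0.05, with 13 members below 0. The retinoid receptors RXRA, RARG, RARB and RARA had values of -0.77, -0.57, -0.51 and -0.002.

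Cell cycle and growth genes moved little in KYSE140. None of 53 DNA replication genes, 69 mitosis genes, 23 G1 cyclins and inhibitors, 45 ribosome biogenesis genes and 76 cytosolic ribosomal protein genes passed the threshold in either direction. Their medians were -0.13, -0.02, 0.01, 0.06 and 0.08. MCM7, a subunit of the replicative helicase, had a log2 fold change of -0.40, CCNB1 (cyclin B1) one of -0.08 and CDK4 one of -0.01. In TE5 the medians of the same lists were -0.79, -0.48, -0.25, -0.59 and -0.41, and 10 replication genes and 7 mitosis genes passed -1. The difference between the lines was not tested.

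Further lists with no member past the threshold were p53 response targets (37 genes, median 0.12), the unfolded protein response (43, -0.07), sterol and fatty acid synthesis (38, -0.27), Notch (21, -0.22), splicing regulators (30, -0.01) and immediate early factors (23, -0.13). SCD, a fatty acid desaturase, had 404639 normalized counts in scramble, 245740 in shTP63 and 176671 in shSOX2, a log2 fold change of -0.72. Of the p53 targets, SFN (14-3-3 sigma) had a value of -0.43 and PERP, a desmosome-associated target shared by p53 and p63, one of 0.12. NOTCH3 and its ligand JAG2 had values of -0.26 and -0.19, with JAG2 at -1.67 in TE5. The EGFR family and its ligands had a median of 0.28 over 13 genes, the BCL2 family with its inhibitors 0.12 over 28, with BIRC3 rising, fibronectin and matrix integrins 0.02 over 16, with CCN2 rising, and homologous recombination and Fanconi genes 0.02 over 35, with FANCB rising. Also without a called member were core histones (12 genes, median 0.21), proteoglycan synthesis (20, -0.16), abundant lncRNAs (35, 0.11) and oncofetal RNA-binding genes (14, 0.06).

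**Figure D2:**
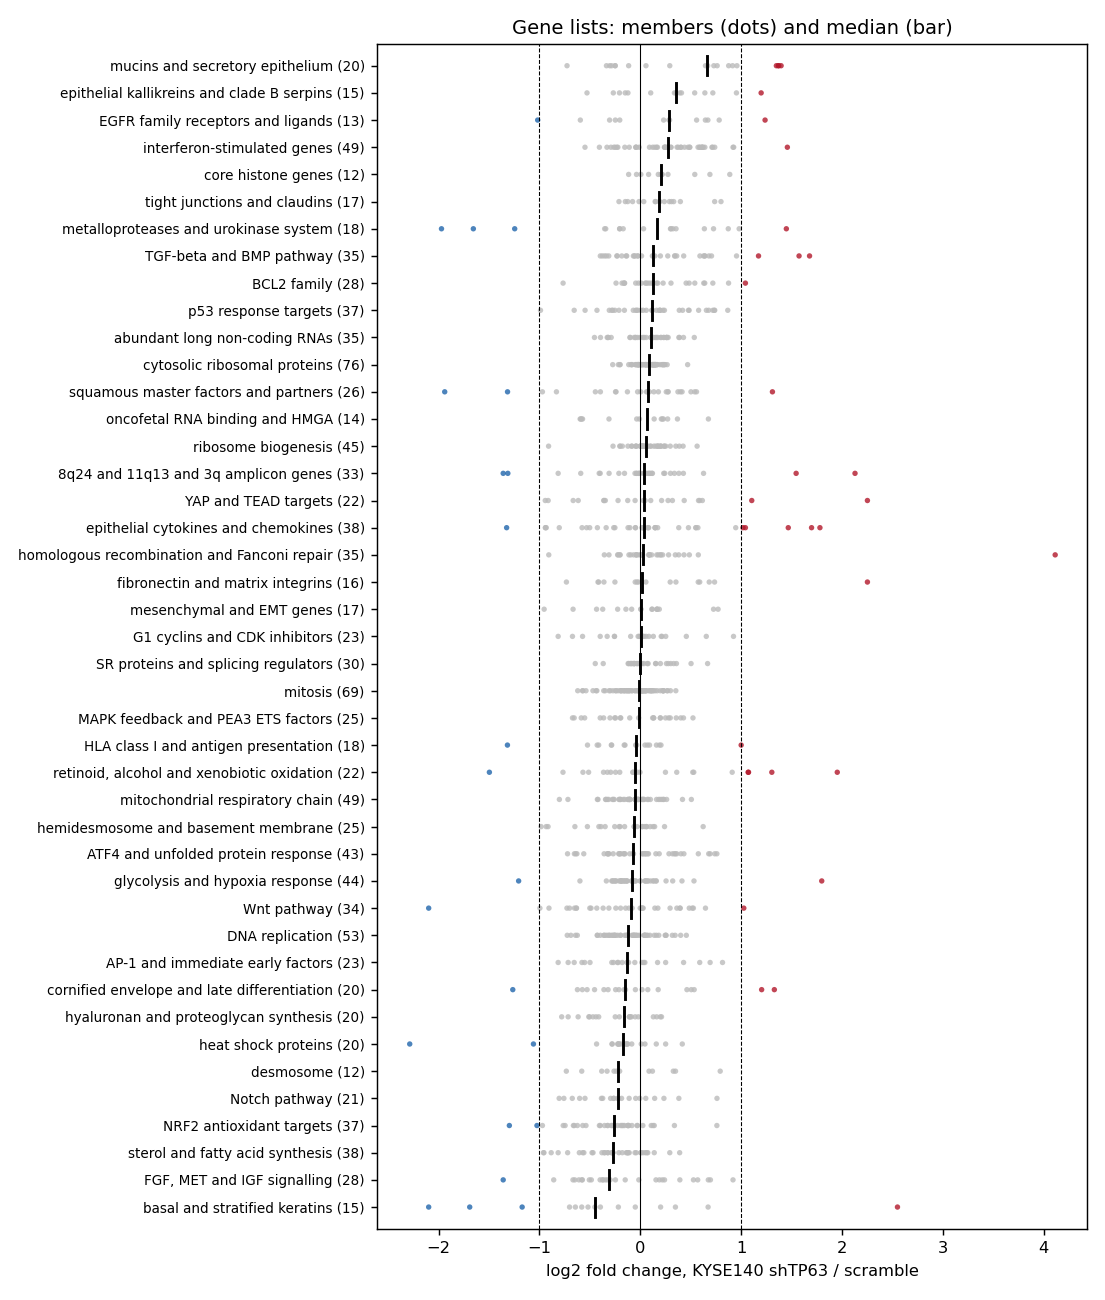
Log2 fold change of each well-counted member (dots) in KYSE140 shTP63 against scramble for 43 gene lists, ordered by their median (black bar), with the number of members in brackets, members that fell in blue and members that rose in red. Most medians lie near 0, keratins have the lowest at -0.45 and mucin and secretory genes the highest at 0.66.

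At 8q24, a locus often amplified in squamous carcinomas, the long non-coding RNA CASC19 fell and its neighbour CASC8 rose. CASC19 had 2056 normalized counts in scramble, 827 in shTP63 and 861 in shSOX2, a log2 fold change of -1.31 in KYSE140 and -1.43 in TE5. Its canonical transcript was not among the transcripts of the files. The annotation used places the transcript of CCAT1 within CASC19, so CCAT1 has no value of its own here. CASC8 had 99.9 normalized counts in scramble, 441 in shTP63 and 196 in shSOX2 (2.13). POU5F1B, a POU5F1 copy at the same locus, rose from 40.3 to 120 (1.55), also without its canonical transcript.

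The largest fold changes belonged mostly to genes with few counts. Among decreases, the calcium channel-associated CACHD1 went from 1565 to 129 normalized counts, with 252 in shSOX2 (-3.59). LMBRD1, a lysosomal cobalamin exporter, went from 359 to 43.1, with 762 in shSOX2 (-3.03). Both lacked their canonical transcript. ADCY5, an adenylyl cyclase, went from 1454 to 258, with 308 in shSOX2 (-2.49). TP53AIP1, a mitochondrial p53 target, went from 344 to 55.8, with 677 in shSOX2 (-2.60). The matrix genes COL12A1 and FBLN2 had values of -2.27 and -2.22, and PUDP, a phosphatase, went from 945 to 207, with 2052 in shSOX2 (-2.19, and -2.09 in TE5).

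Among increases, KIF24, a kinesin, had no count in scramble and shSOX2 and 105 normalized counts in shTP63, at least 25.2-fold higher than the 3 counts that a 0 allows in a library. With the counting error of both libraries, the lower limit of its log2 ratio was 4.33. In TE5 it had no count in scramble, 8.0 normalized counts in shTP63 and 158 in shSOX2. DNAH6, an axonemal dynein, had 24.9 normalized counts in scramble, 690 in shTP63 and 334 in shSOX2 (4.74 [4.12, 5.55], and 3.69 in TE5). COLQ and TCIM rested on 3.0 counts each in scramble, with ratios of 4.86 [3.59, 7.46] and 4.55 [3.27, 7.15] on the log2 scale. SYNM, an intermediate filament protein, went from 38.7 to 456 (3.53), KYNU, which degrades kynurenine, from 13.9 to 171 (3.53) and CHST4, a sulfotransferase, from 26.4 to 299 (3.45). The chemotactic receptor GPR183 had 15.3, 172 and 1.2 in scramble, shTP63 and shSOX2 (3.41), and PDZD2 had 72.0, 609 and 553 (3.06). FANCB, a Fanconi anemia core subunit, had a value of 4.12 without its canonical transcript, as did ZNF761 with 2.62. ZNF761 had 45.2 normalized counts in scramble, 284 in shTP63 and 261 in shSOX2. Per length, the ratio was smaller for some of these genes. COLQ had 0.541 TPM in scramble and 1.10 in shTP63, DNAH6 0.415 and 1.69, PDZD2 0.906 and 1.88, and FANCB 0.524 and 2.17. TCIM, at 0.038 and 1.12 TPM, and KYNU, at 0.129 and 1.94, had ratios of a size like those in counts. The part of transcript length was not tested. NUDT4B, GOLGA6L9 and UGT1A3, each at 0 in shTP63, and TEN1 and TRIM49, which rose, are uncertain, since 68.6% to 87.0% of their 31-base words occur in other genes.

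A comparison of libraries of the same lane was possible against KYSE140 shSOX2. With that library as reference, 471 well-counted genes lay at -1 or lower (3.27%) and 568 at 1 or higher (3.94%). Of the 248 genes that fell against scramble, 153 also did so against shSOX2, as did 114 of the 269 that rose, whereas 21 and 38 had no change or the opposite sign. List medians against shSOX2 were -0.89 for desmosome genes, -0.73 for the cornified envelope list, -0.58 for hemidesmosome genes, -0.37 for NRF2 genes and -0.32 for cytokines. For the same lists, shSOX2 against scramble had medians of 0.66, 0.68, 0.43, 0.10 and 0.37. The shTP63 library enters both comparisons, and SOX2 is silenced in the reference of the second, so these counts are a description of levels. TP63, KRT13, KRT14, KRT15, GJB2, DKK3, CYP2S1, SERPINE2 and TIMP3 were lower in shTP63 than in both other libraries, and KRT80, SLC2A3, AMOTL2, CCN2 and RDH10 were higher than in both. ALYREF, an mRNA export factor, had 1035 normalized counts in scramble, 3512 in shTP63 and 5082 in shSOX2, so both lane 3 libraries lay above scramble (1.76). Of the 87 named genes past the threshold, 37 were no longer past it against shSOX2. Log2 fold changes against shSOX2 were -0.96 for CACHD1, -0.65 for CKB, -0.86 for ARF1, -0.25 for ADCY5, -0.06 for CASC19, -0.55 for CA12, -0.60 for AKR1C1 and -0.41 for FGF19. Among the increases they were 0.56 for ID1, 0.95 for ID4, 0.61 for SCEL, 0.98 for PRSS22, 0.97 for IL7R, 0.95 for IL36RN, 0.18 for CD274, 0.14 for PDZD2 and 0.12 for ZNF761. The part of the lane in these differences was not tested.

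**Figure D3:**
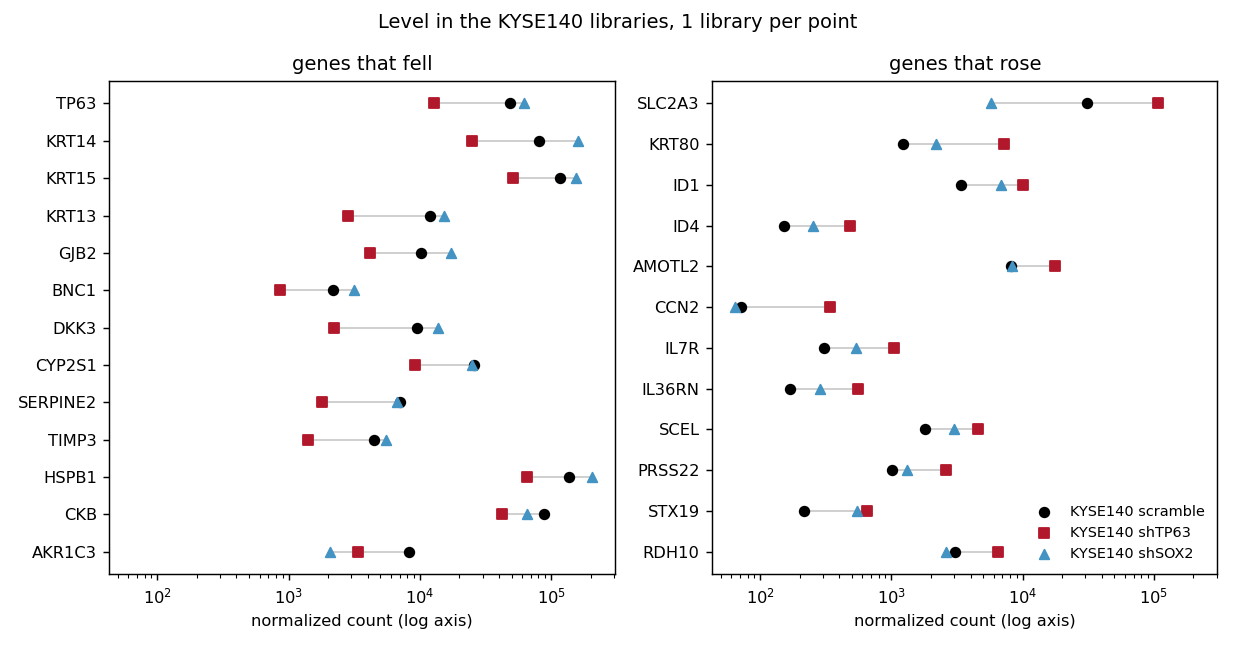
Normalized counts (log axis) of selected genes that fell (left) or rose (right) in the KYSE140 scramble (black circles), shTP63 (red squares) and shSOX2 (blue triangles) libraries, 1 library per point and no error bars. In shTP63 all genes at the left except AKR1C3 were lowest of the 3 libraries, and all genes at the right were highest.

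TE5 gave a comparison with no library in common, since its shTP63 and scramble libraries are separate from those of KYSE140, although lane and silencing cannot be told apart in TE5 either. Of 189 genes that fell in KYSE140 and were well counted in TE5, 87 (46.0%) fell there and 15 rose, beside 4.33% and 3.60% of all 13428 genes well counted in both lines. Of 192 genes that rose in KYSE140, 57 (29.7%) rose in TE5 and 5 fell. The median TE5 log2 fold change was -0.88 for the first group and 0.67 for the second, beside -0.09 for all genes. The labels give the shTP63 construct the same name in both lines, so effects of TP63 loss and of that hairpin on other transcripts cannot be told apart.

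Genes that fell past the threshold in both lines included ACKR3, DKK3, CYP2S1, CRYAB and CKB, given above. ACO1, the cytosolic aconitase that also binds iron-responsive elements, had 7311 and 2193 normalized counts in KYSE140 scramble and shTP63 and 2820 and 720 in TE5 (-1.74 and -1.97). CETN2, a centrin of centrioles, had 5442 and 1918 in KYSE140 and 5163 and 1288 in TE5 (-1.504 and -2.002). MRPS33, a mitochondrial ribosomal protein, had values of -1.57 and -2.55, and OAF, a secreted protein, of -1.47 and -2.33. Genes that rose in both lines included SLC2A3, IL7R, IL36RN and SCEL. LIPH, a lipase, went from 34.8 to 146 in KYSE140 and from 3648 to 13052 in TE5 (2.04 and 1.84). The exchanger SLC9A4 had values of 1.57 and 1.52, PRR15L of 1.70 and 4.05, GBP5, an interferon-induced GTPase, of 1.55 and 2.82, and DIO2, a deiodinase, of 1.51 and 2.57. PATL2 had values of 1.56 and 1.999, without its canonical transcript.

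**Figure D4:**
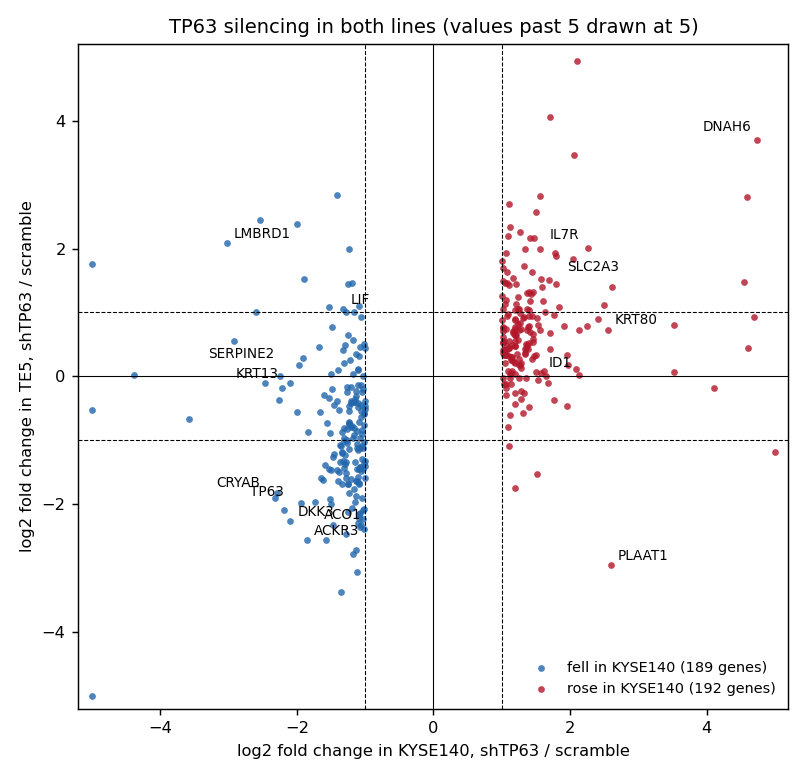
Log2 fold change of shTP63 against scramble in TE5 (vertical) against that in KYSE140 (horizontal) for genes past 2-fold in KYSE140 and well counted in TE5, with genes that fell in KYSE140 in blue (189) and genes that rose in red (192). Dashed lines mark -1 and 1, and values past 5 are drawn at 5. KRT13, SERPINE2 and ID1 lie near 0 in TE5, whereas SLC2A3, IL7R, ACKR3 and DKK3 lie past the threshold in both lines.

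A word of 7 bases in 3′ UTRs moved with the decreases. Short hairpins can lower transcripts other than their target through short matches in 3′ UTRs, and an earlier scan of these same libraries had picked AGAACAC, so the following values are a description and support nothing. The word occurred in 11.3% of 12590 genes with a 3′ UTR, in 21.6% of the genes that fell (46 of 213), in 39.0% of those that fell in both lines (32 of 82) and in 6.67% of those that rose (13 of 195). Genes with the word had a median log2 fold change of -0.11 in KYSE140 shTP63, -0.27 in TE5 shTP63 and 0.03 in KYSE140 shSOX2, against 0.01, -0.09 and 0.05 for genes without it. They also had longer 3′ UTRs, with a median of 2812 against 1023 bases. Among genes without the word, 55 of 148 (37.2%) that fell in KYSE140 fell in TE5. Of all genes without the word and well counted in both lines, 3.45% fell in TE5. Among the decreases, ACO1, ARF1, HMGN2, PUDP and COPS9 hold it, and KRT13, KRT14, KRT15, GJB2, SERPINE2, TIMP3, CYP2S1, HSPB1 and CKB do not. KYNU and BIRC3, which rose, also hold it, as do SOX2, CCND1 and SCD, which did not pass the threshold. Its part in the decreases was not tested.

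TP63 itself holds the word in its coding sequence, in 12 of its 14 transcripts in the files. These sites are shown because they carry the word in genes that fell in both lines, from GRCh37 transcripts, in the direction of the transcript, with the word in capitals.
ACO1 3′ UTR, chr9:32450775-32450799, plus strand: aggcggtttgggAGAACACatttct
ARF1 3′ UTR, chr1:228286137-228286161, plus strand: gaatccaagtcgAGAACACttgaac
HMGN2 3′ UTR, chr1:26801763-26801787, plus strand: ttgttagcacacAGAACACttcatt
TP63 coding sequence, across a splice junction, chr3:189586503-189587134, plus strand: gcccgtttcgtcAGAACACacatgg

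p53-family proteins bind pairs of half-sites with a CATG core. Promoters from RefSeq (GRCh38.p14), running from 250 bases before to 50 bases after the start, were found for 10798 well-counted genes, 157 of those that fell and 147 of those that rose. The pair CATGNNNNNNCATG, which reads the same on both strands, was present in 20 (0.185%) of all, in 1 that fell and in 0 that rose. The study found most TP63 binding peaks in intergenic and intron regions, and sequence outside these promoters was not searched here. That 1 was CEL, a bile salt-dependent lipase with a log2 fold change of -1.06, noted after its value was seen, whose plus-strand promoter at chr9:133061731-133062030 is shown with both cores in capitals.
CEL promoter: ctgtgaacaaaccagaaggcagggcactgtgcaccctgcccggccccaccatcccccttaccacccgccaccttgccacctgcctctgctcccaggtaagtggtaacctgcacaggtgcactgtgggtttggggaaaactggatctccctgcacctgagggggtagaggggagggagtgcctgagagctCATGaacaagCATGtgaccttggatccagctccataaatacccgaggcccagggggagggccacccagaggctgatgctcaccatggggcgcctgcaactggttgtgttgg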

How the data were processed

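RNA-seq of 7 libraries was analysed. Per the labels and the study's methods, the authors pseudoaligned 100-base paired-end reads to the hg19 Ensembl 82 transcriptome with kallisto (version not given in the sources used here) and deposited an estimated count and a TPM per transcript for each library; the submitters' processing notes also name DESeq2. Here transcripts were summed to genes with GENCODE 44 on GRCh37. Of 196354 transcripts, 13491, which held 6.31% to 6.55% of each library's counts, had no gene there and were left out; 1217 of 14401 well-counted genes lacked their canonical transcript. Totals were 68532611 to 98036494 estimated counts. Counts were scaled with TMM factors over 7 libraries (edgeR 4.0.16, R 4.3.3); DESeq2 1.42.0 size factors were an alternative. The value used was log2((shTP63 + 1)/(scramble + 1)) of normalized counts, called at -1 and 1 among genes with at least 100 estimated counts in 1 of 2 libraries. Changes are on this scale. No test was run, as each condition had 1 library. A gene with 50% or more of its 31-base words (1 in 16 sampled) in other genes was called uncertain. Intervals are exact conditional (Clopper-Pearson) limits of the 2 counts. A 3′ UTR was that of the gene's coding transcript with the most counts. The calling step was tested on simulated data.

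Named were TP63, SOX2, CCAT1, TXNRD1, ETV4, EGFR and MYC, the 15 largest changes in each direction, the 10 largest TPM changes in each direction among genes past the fold, the 15 largest in both lines in each direction, and of each list up to 4 members past the fold in each direction or its 2 most abundant; of these, uncertain genes are named only as examples. Others are named as members of the described families. The members and lists were chosen with earlier results of these data known. Read strand was not given in the sources used here, so overlapping antisense genes cannot be told apart. The hairpin sequence was not used here. Some results are not reported here.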

Additional observations from a re-analysis of the deposited data

Results flagged for a closer look

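In 4 named genes the change passed 2-fold in opposite directions in the lines, with 1 library a side. The difference was not tested. LMBRD1 had a log2 fold change of -3.03 in KYSE140 and 2.08 in TE5, TP53AIP1 of -2.60 and 1.00, PLAAT1 of 2.60 and -2.95, and LIF of -1.33 and 1.05. The TE5 counting limits reached below 1 for TP53AIP1 [0.51, 1.52] and LIF [0.98, 1.13]. TP53AIP1 had 49.4 normalized counts in TE5 scramble and 100 in TE5 shTP63. In KYSE140, LMBRD1 stood at 762 normalized counts in shSOX2, above its 359 in scramble, and TP53AIP1 at 677, above its 344. PLAAT1 had 43.8 normalized counts in KYSE140 scramble and 270.2 in shTP63, and 107 and 12.9 in TE5.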

How the results depend on the processing

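TP63 kept a decrease past 2-fold under every alternative run, with log2 fold changes of -1.99 with DESeq2 size factors, -1.88 with total counts, -1.36 with no scaling, -1.94 with a pseudocount of 10, -1.97 in TPM and -2.28 against shSOX2. The number of genes that fell and rose, 248 and 269, became 58 and 1687 with no scaling, 936 and 1969 with at least 10 counts, 329 and 477 with at least 50 and 134 and 71 with at least 500. A 1.5-fold threshold gave 918 and 955, a 3-fold one 57 and 69, TPM with a pseudocount of 1 gave 121 and 85, and shSOX2 as reference 471 and 568. The other alternatives stayed within 1.5 times, including that without genes lacking their canonical transcript (219 and 235), chosen after seeing the data. The share of genes that fell in KYSE140 and also in TE5 was 30.3% with no scaling (10 of 33), and 37.2% to 62.0% under the other alternatives, all chosen after seeing the data; that of genes that rose was 24.1% to 37.6%. Against shSOX2, 21 of the genes that fell and 38 of those that rose had no change or the opposite sign, among them 8 of the named genes: ALYREF (-0.53), A2ML1 (-0.28), MMP13 (-1.15), SLPI (-0.30), HLA-F (-0.39), CYP1B1 (-0.008), MUC15 (-0.41) and AKR1C3 (0.71). Of 87 named genes past 2-fold, 4 were no longer so with DESeq2 size factors, 5 with total counts, 2 with a pseudocount of 10, 36 in TPM and 37 against shSOX2. The cause was not tested. No paired analysis was possible because the KYSE140 comparison had 1 library a side and came from no test. A fit over both lines with the line as a term was not run.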
